A study of Bos taurus with 170 samples.

Results

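KLF4 and KLF5 are the 2 genes described here, out of 10772 genes counted in single bovine blastomeres. They were found by symbol in the table of unique molecular identifiers (UMI), in which each captured mRNA molecule is counted once, and the other 9 genes whose symbol is KLF followed by digits served for comparison. KLF stands for Krüppel-like factor. These proteins bind GC-rich and CACCC DNA through zinc fingers at their C-terminal end, as the related SP factors do, and the family differs mainly in the N-terminal part, which recruits activators or repressors. KLF4 is known as a reprogramming factor and KLF5 as a factor of early mouse embryos, where it acts in both trophectoderm and inner cell mass, and in mouse embryonic stem cells both belong to the circuit that maintains naive pluripotency downstream of LIF and STAT3.

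The cells came from untreated Bos taurus embryos that were matured, fertilised and cultured in vitro from slaughterhouse oocytes, and embryos were chosen by the timing of their first cleavages. Day 2 is the 8-cell stage, with 6 embryos, and Day 3 is the 16-cell stage, with 8 embryos. The interval spans the major activation of the bovine embryonic genome, when transcripts of the embryo replace those stored in the oocyte. Zona-free embryos were taken apart by pipetting, each blastomere was lysed on its own, and 3' ends were counted by SCRB-Seq. Of 170 cells, 161 held at least 2000 UMI and were used, 43 from Day 2 and 118 from Day 3.

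Day 2 cells were deeper, with a median of 75114 gene UMI (2634 to 357287) against 24016 (2078 to 108376) on Day 3. A single UMI in the median cell was therefore worth 13.31 UMI per 1000000 gene UMI (CPM) on Day 2 and 41.64 on Day 3. Summed over its cells, an embryo held 438899 to 920192 UMI on Day 2 and 294912 to 600185 on Day 3, and these sums are the samples of all tests between days. Of 93 cell barcodes, 77 were used by 2 cells of different pools and none by more. The first set of barcodes was carried by Day3-E1, Day3-E2 and each Day 2 embryo, the second by Day3-E4 to Day3-E8, and the labels did not settle the set of Day3-E3. Among the 43 Day 2 cells with such a partner, the rank correlation between the cell's own level and the partner's UMI was 0.0308 for KLF4 and 0.167 for KLF5. No 2 cells had identical counts. Oocyte markers identified the cells as early embryo: all 10 markers in the table were above 0, with summed levels of 10257 to 11643 CPM on Day 2 and 3071 to 11847 on Day 3. The 10 cumulus cell markers in the table summed to 507 to 612 CPM on Day 2 and 185 to 550 on Day 3. Most of that sum was HAS2 and STAR, while TNFAIP6 went from 1 to 35 UMI and INHBA from 54 to 79 UMI between Day 2 and Day 3. The part of cumulus RNA in the results was not tested.

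KLF4 was present before activation and rose in every Day 3 embryo. The Day 2 embryos lay close together, at 89.8, 97.8, 89.7, 68.5, 99.8 and 95.7 CPM for Day2-E1 to Day2-E6, from 42 to 90 UMI each. The Day 3 embryos spread over more than 10-fold, at 207, 1621, 1147, 2017, 671, 1924, 1319 and 2340 CPM for Day3-E1 to Day3-E8, from 124 to 909 UMI each. All 8 Day 3 embryos were above all Day 2 embryos, and Day3-E1 was the nearest to them, with an exact Poisson 95% interval of 172 to 246 CPM that covers counting error only. The mean rose from 90.2 CPM on Day 2 (SD 11.42, n = 6) to 1406 CPM on Day 3 (SD 719, n = 8). The edgeR quasi-likelihood fit over 5274 genes put the log2 fold change at 4.33 with a standard error of 0.50 and an adjusted p of 3.18e-05. In this fit 32.5% of all genes were called in either direction, 21.2% as higher on Day 3 and 595 genes as lower, and 210 genes, 3.98% of those tested, had every Day 3 embryo above every Day 2 embryo. In raw counts, the 43 Day 2 cells held 365 KLF4 UMI and the 118 Day 3 cells 4168. The rise in CPM is a rise in the share of captured mRNA. Against the ERCC spike-in RNA, added in equal amount to each well, Day 2 embryos held 64.8 to 71.7 gene UMI per ERCC UMI. Day3-E1 to Day3-E3 held 67.3 to 70.5 and Day3-E4 to Day3-E8 held 32.6 to 40.2. This measure moved with the settled barcode sets, and Day3-E3, whose set is not settled, was near the first set at 67.9. Per 1000 ERCC UMI, KLF4 stood at 4.62 to 6.95 UMI in Day 2 embryos and at 14.56 to 109 in Day 3 embryos, with 8 of 8 above Day 2. The mean log2 difference on this scale was 3.09 (p = 0.000666, exact permutation test over embryos), a comparison added after seeing the data. KLF4 stood 58th among all tested genes by log2 fold change.

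KLF5 was about an order of magnitude scarcer and rose in most, but not all, Day 3 embryos. Its Day 2 levels were 10.69, 10.87, 6.596, 6.09, 12.8 and 22.8 CPM for Day2-E1 to Day2-E6, each from 4 to 10 UMI. Its Day 3 levels were 10.0, 102, 52.4, 374, 15.596, 83.3, 97.0 and 288 CPM for Day3-E1 to Day3-E8. In 6 embryos it stood above the Day 2 range, most in Day3-E4 and Day3-E8, whereas Day3-E1 and Day3-E5, with 6 UMI each, lay within it. The mean rose from 11.64 CPM on Day 2 (SD 6.05, n = 6) to 128 CPM on Day 3 (SD 132, n = 8). By edgeR the log2 fold change was 3.91, its standard error 0.80 and its adjusted p 0.00176, and the change was the 103rd largest of all tested genes. With embryos of the first barcode set alone, which leaves Day3-E1 and Day3-E2 for Day 3, the log2 fold change was 2.42 with an edgeR adjusted p of 0.0724. On the same spike-in scale KLF5 differed by 2.1225 on the log2 scale (exact permutation p = 0.0130), again with Day3-E1 and Day3-E5 within the Day 2 range. The titles of the samples end in p1, p2 or p3, a batch mark that the labels do not explain. Within p2, KLF5 was at 12.8 and 22.8 CPM in the Day 2 embryos and at 97.0 and 288 in the Day 3 embryos. Within p3 the Day 2 embryos reached 6.09 to 10.87 CPM and the Day 3 embryos stood at 15.596 and 83.3. KLF4 separated the days in the same way within these batches, with 95.7 to 99.8 against 1319 to 2340 CPM in p2 and 68.5 to 97.8 against 671 to 1924 in p3, and p1 held Day 3 embryos only.

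**Figure D1:**
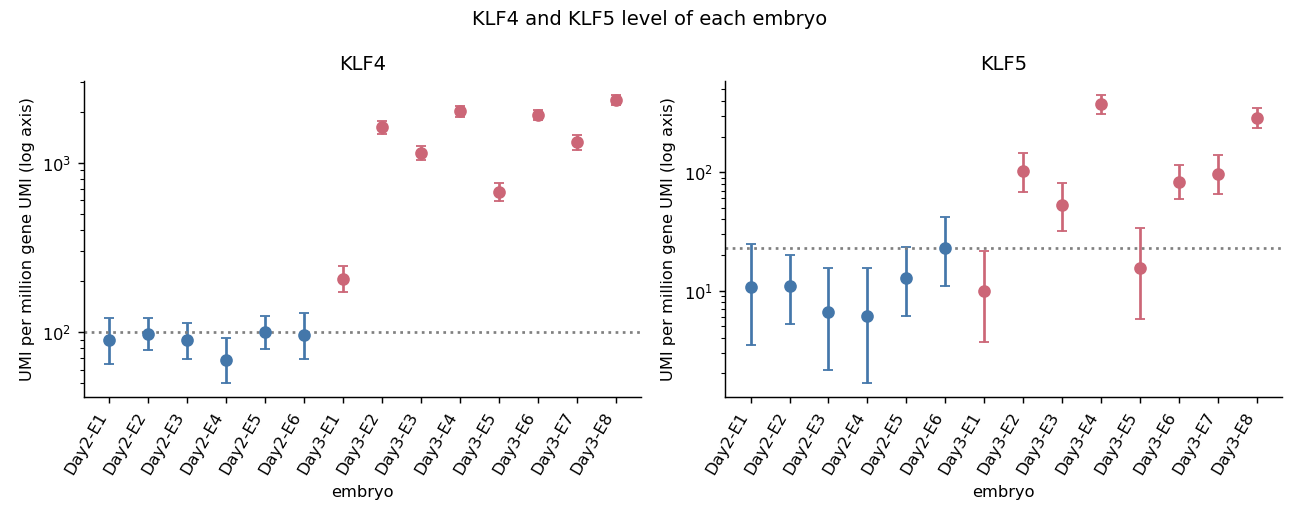
Level of KLF4 (left) and KLF5 (right) in each embryo, in CPM on a log axis, Day 2 in blue and Day 3 in red; bars are exact Poisson 95% intervals and the dotted line is the highest Day 2 embryo. KLF4 exceeded the line in all 8 Day 3 embryos, with the lowest at 207 CPM, and KLF5 in 6, with Day3-E1 and Day3-E5 below it at 10.0 and 15.596 CPM.

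The folds of both genes were set side by side in each embryo, with counting intervals that cover the Day 3 counts only and take the Day 2 mean as fixed. In Day3-E1, KLF4 was 2.29-fold the Day 2 mean, with an interval of 1.90 to 2.73, and KLF5 was 0.859-fold, with an interval of 0.315 to 1.87. In Day3-E5 the gap was wider: KLF4 was 7.43-fold (6.55 to 8.40) and KLF5 1.34-fold (0.492 to 2.92). No embryo showed the reverse, a KLF5 level above the Day 2 range with KLF4 inside it. The highest folds of KLF5 were in Day3-E4, at 32.1-fold against 22.4-fold for KLF4, and in Day3-E8, at 24.8-fold against 25.9-fold. KLF4 was thus above its Day 2 range in the 6 embryos with KLF5 above its own and in 2 more. With 6 KLF5 UMI each, Day3-E1 and Day3-E5 allow KLF5 folds of up to 1.87 and 2.92. In Day3-E1 the first of these lies just below the lower end for KLF4, 1.90. As the intervals leave out the counting error of Day 2, a smaller change of KLF5 than of KLF4 was not resolved there.

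The number of KLF4 UMI per KLF5 UMI compares the genes without reference to depth. Summed over Day 2 embryos there were 365 KLF4 and 44 KLF5 UMI, or 8.30 to 1 (exact binomial 95% interval 6.06 to 11.62). This interval pools the embryos and covers counting error only, not the spread between embryos. The intervals of Day2-E3 alone (5.55 to 43.2) and Day2-E4 alone (4.10 to 43.1) overlapped that of every Day 3 embryo. The intervals of Day3-E5 at 43.0 (19.5 to 118), Day3-E3 at 21.9 (14.01 to 36.2) and Day3-E6 at 23.1 (16.699 to 32.9) lay wholly above that of the Day 2 sum. Those of Day3-E1 at 20.7 (9.23 to 57.4), Day3-E2 at 15.9 (11.01 to 23.9) and Day3-E7 (9.38 to 20.4) overlapped it. In Day3-E4 and Day3-E8, the embryos richest in KLF5, it was 5.40 (4.46 to 6.59) and 8.12 (6.66 to 9.97), within the range of single Day 2 embryos, which ran from 4.20 in Day2-E6 to 68 KLF4 for 5 KLF5 UMI in Day2-E3. On the log2 scale, KLF5 over KLF4 (each count plus 0.5) fell from a mean of -2.99 ± 0.55 (SD, n = 6) to -3.96 ± 0.90 (SD, n = 8). This was a difference of -0.97 (p = 0.0410, two-sided exact permutation test over embryos, 3003 arrangements). The call was not stable. Thinning to 10000 UMI left each Day 2 embryo 0 or 1 KLF5 UMI, so that the added 0.5 weighs heavily there. The difference was then -1.64 (exact permutation p = 0.0113). It stayed under 0.05 without Day2-E3, Day2-E4, Day3-E4 or Day3-E8 and was lost without any other single embryo, with p up to 0.0971 by the same exact test, and it was also lost with the mean of per-cell levels (difference -0.88, exact p = 0.166).

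Embryos further into activation had more of both genes. Progress was measured as the summed level of 20 activation genes, a list published by the study. The study drew on genes that earlier work first found in bovine embryos at the 8-cell stage, and kept those detected in these cells. The list is therefore not independent of these cells. The sum was 88.3 to 165 CPM on Day 2, of which DDX3Y, whose X-linked copy is similar in sequence, gave a mean of 86.2. On Day 3 it was 130, 1021, 429, 2074, 296, 872, 1002 and 2132 CPM for Day3-E1 to Day3-E8. Day3-E1 thus lay within the Day 2 range and Day3-E4 and Day3-E8 lay above all others, the same embryos that were lowest and highest for KLF5. The most abundant members of the sum on Day 3 were FOLR1, at a mean of 420 CPM, and DDX3Y, at 217. The study names FOLR1 and KLF5 as markers of the same cluster of these cells, so KLF5 and the sum are not independent. Over the 8 Day 3 embryos, KLF5 and the sum had a Pearson r of 0.980 and a Spearman rho of 0.976 on log2(CPM + 1), with exact permutation p of 7.44e-05 and 0.000397 (adjusted over 4 relations 0.000298 and 0.00159). KLF4 and the sum had r = 0.934 and rho = 0.929 (exact permutation p = 0.000322 and 0.00223, adjusted 0.000628 and 0.00446). KLF4 and KLF5 had r = 0.896 and rho = 0.905 (exact permutation p = 0.000471 and 0.00456, adjusted 0.000628 and 0.00608). Without Day3-E1 and Day3-E5, the 2 embryos farthest from the median on the x axis in each case, r was 0.961 for KLF5 with the sum, 0.848 for KLF4 with the sum and 0.795 for KLF4 with KLF5, with exact permutation p of 0.00417, 0.0347 and 0.0736 in that order. The relation between the 2 KLF genes therefore rests in part on Day3-E1 and Day3-E5.

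The log2 ratio of KLF5 to KLF4 rose with activation among Day 3 embryos, with r = 0.745 and rho = 0.786 (exact permutation p = 0.0340 and 0.0279, the same after adjustment) and r = 0.879 (exact permutation p = 0.0319) without Day3-E1 and Day3-E5. Leaving out Day3-E2, Day3-E3, Day3-E4, Day3-E5, Day3-E7 or Day3-E8 alone ended this call, with r of 0.673 to 0.755 and exact permutation p up to 0.0976. No title batch and no settled barcode set held the 6 Day 3 embryos asked for a correlation, with 5 in the second set, so none was computed within one.

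**Figure D2:**
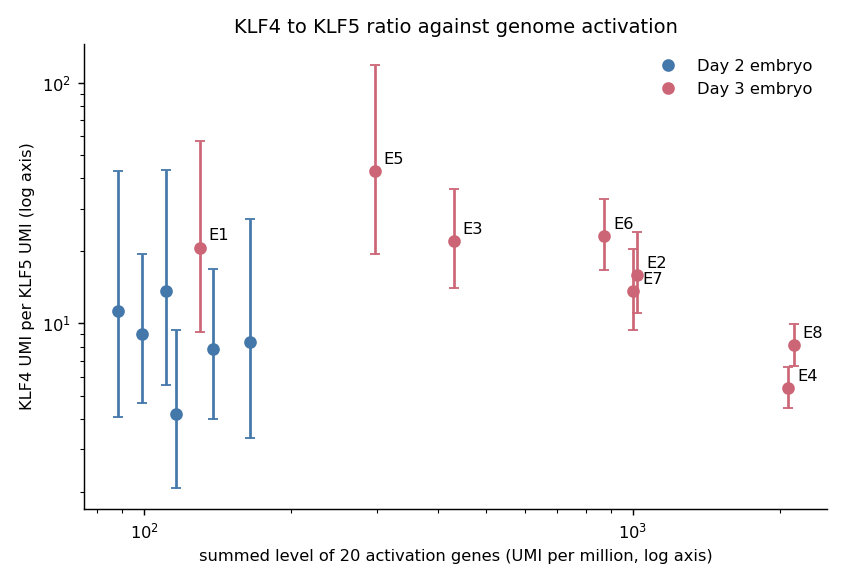
KLF4 UMI per KLF5 UMI of each embryo (log axis, exact binomial 95% intervals) against the summed level of 20 activation genes in CPM (log axis), Day 2 in blue and Day 3 in red with embryo numbers. Among Day 3 embryos the ratio is highest in E5, at 43.0, and lowest in E4 and E8, at 5.40 and 8.12, the 2 embryos with the highest activation sum.

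Single cells were compared after thinning every cell to 10000 UMI, which 37 Day 2 and 103 Day 3 cells reached. The median cell then held 1 KLF4 UMI on Day 2 and 13 on Day 3, and 0 KLF5 UMI on Day 2 and 1 on Day 3. No Day 2 cell had more than 3 KLF4 UMI or more than 1 KLF5 UMI. Of the 103 Day 3 cells, 87 exceeded the Day 2 limit for KLF4 and 30 that for KLF5. Both limits were passed in 30 cells, that of KLF4 alone in 57, that of KLF5 alone in 0 and neither in 16. The count of 0 of 103 covers cells past a limit, not cells without KLF5 mRNA. The share past the KLF4 limit was higher than that past the KLF5 limit in 8 of 8 embryos, by 55.0 percentage points on average (p = 0.00781, two-sided exact sign-flip permutation test, the smallest it can give). The limits are not equally easy to pass: KLF4 is counted at about 10 times the UMI of KLF5, and the median Day 3 cell, with 1 KLF5 UMI, sits on the KLF5 limit. An excess of cells past the KLF4 limit is therefore given by abundance too, and no order of the 2 genes is drawn from it. Thinned to 5000 UMI, the difference was 31.3 points (exact sign-flip permutation p = 0.0156).

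The cells that had not passed the KLF4 limit were mostly in one embryo. Day3-E1 held 11 of the 16, with 2 of its 13 cells past the KLF4 limit and none past that of KLF5. In Day3-E3 and Day3-E5, 11 of 13 cells each were past the KLF4 limit and again none past that of KLF5. In Day3-E2, Day3-E6 and Day3-E7, 13 of 13, 13 of 14 and 12 of 12 cells were past the KLF4 limit against 4, 3 and 3 past that of KLF5. In Day3-E4 and Day3-E8 all cells were past the KLF4 limit, and 9 of 11 and 11 of 14 past that of KLF5.

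Detection alone gave a similar picture at equal depth. A KLF4 UMI was found in 22 of 37 thinned Day 2 cells and 98 of 103 Day 3 cells, and the share per embryo averaged 58.9% and 95.2%, with SDs of 17.9 (n = 6) and 13.598 (n = 8). The two-sided exact permutation p was 0.00167, or 0.00333 adjusted over both genes. A KLF5 UMI was found in 4 of 37 and 53 of 103 cells, and the share per embryo averaged 10.18% and 52.4%, with SDs of 8.28 (n = 6) and 33.1 (n = 8) and an exact permutation p of 0.0120 before and after adjustment. Without thinning, the deeper Day 2 cells narrowed the gap for KLF5 to 24 of 43 against 79 of 118 cells, a difference of 12.6 percentage points (exact permutation p = 0.305). KLF5 without KLF4 was rare at full depth, in 1 Day 2 cell and 0 Day 3 cells.

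**Figure D3:**
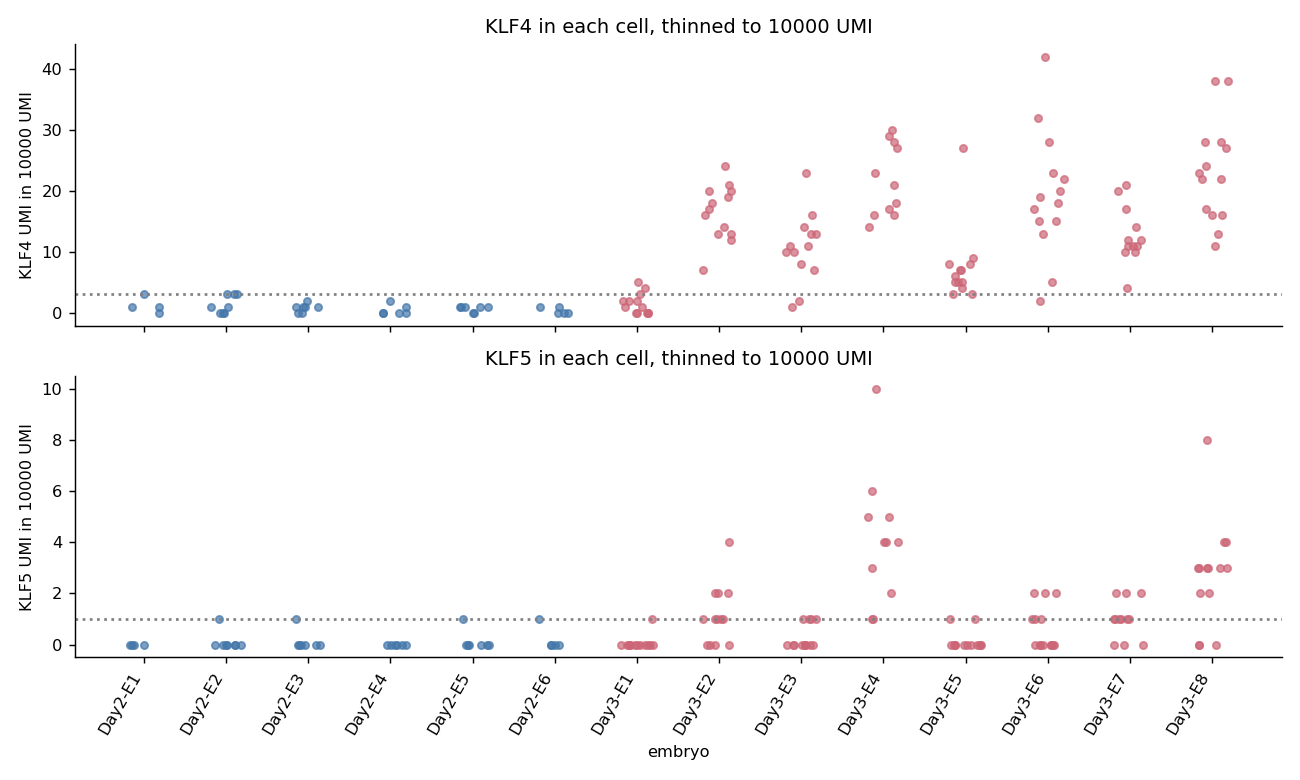
UMI of KLF4 (top) and KLF5 (bottom) in each cell after thinning to 10000 UMI, by embryo, Day 2 in blue and Day 3 in red; the dotted line is the highest Day 2 cell, 3 UMI for KLF4 and 1 for KLF5. KLF4 was above its line in 87 of 103 Day 3 cells and KLF5 in 30, of which 20 were in Day3-E4 and Day3-E8.

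Cells of one embryo differed in KLF4 on Day 3 more than counting error gives, which was not seen on Day 2. Day 2 embryos held 42 to 90 KLF4 UMI against 124 to 909 on Day 3, so a small spread may not be resolved on Day 2. The spread was taken as the squared coefficient of variation between the cells of an embryo beyond that of counting, which is about 0 when all cells share one level and can be below 0 by chance. For KLF4 it averaged -0.0182 ± 0.0460 (SD, n = 6) on Day 2, with 1 of 6 embryos above 0, and 0.145 ± 0.167 (SD, n = 8) on Day 3, with 8 of 8 above 0. The difference was 0.163 (p = 0.0137, two-sided exact permutation test over embryos), and without Day2-E4 it was 0.155 with an exact permutation p of 0.0505. The embryos lowest in KLF4, Day3-E1 and Day3-E5, had the highest values, 0.510 and 0.274, and the other 6 lay between 0.0232 and 0.114. Day2-E1, the 1 Day 2 embryo above 0, was at 0.0682, within the range of those 6. A rise in spread was not seen for KLF4 alone. SALL4, a pluripotency factor at 858 CPM on Day 3, averaged 0.00911 on Day 2 and 0.0708 on Day 3, with 8 of 8 Day 3 embryos above 0, and KLF10 averaged -0.261 and 0.290, with 7 of 8 above 0. These differences were not tested.

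In Day3-E1 the cells fell on both sides of the Day 2 embryos. Of its 14 cells, 6 were at 0 to 93.7 CPM of KLF4, no higher than the highest Day 2 embryo (99.8). The other 8 were at 211 to 481 CPM, the top cell from 1 KLF4 UMI of 2078. Single Day 2 cells also lay on both sides of 99.8, from 0 to 380 CPM, the latter from 1 KLF4 UMI of 2634. A deep Day 2 cell, with 133327 UMI, was at 143 CPM. The 6 low and 8 high cells of Day3-E1 had similar depth, with medians of 42893 and 46798 UMI. The 6 low cells held 1 KLF10 UMI in all and the 8 high cells 14, whereas of the 6 KLF5 UMI of this embryo 5 were in the low cells. The sets were formed on KLF4 itself and on 1 embryo, so these counts are a description. Outside Day3-E1, each of the other 104 Day 3 cells was above 99.8 CPM, a level that 1 UMI exceeds in a shallow cell. A Day3-E2 cell with 1 KLF4 UMI of 2776 was at 360 CPM. Some Day 2 cells passed this level too, so it does not separate single cells of the 2 days. In Day3-E5, KLF4 ran from 237 to 4558 CPM with a median of 669. Its highest cell had 13 KLF4 UMI of only 2852, and KLF4 level and depth had a rank correlation of -0.703 in this embryo, against a median of -0.181 over the Day 3 embryos. The KLF4 level in Day3-E5 thus moved with depth. Among its cells deep enough for thinning, the spread beyond counting was 0.240, against 0.274 with all its cells. The part of depth in the remaining spread was not tested. A cell of this embryo with 14939 UMI, fewer than the median of 21664, stood out with 2410 CPM and 27 KLF4 UMI after thinning, where the other cells of Day3-E5 had 3 to 9.

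For KLF5 the spread beyond counting was 0.301 ± 0.371 (SD, n = 8) on Day 3, above 0 in 5 of 8 embryos. It was 0.551 to 0.810 in Day3-E1, Day3-E3, Day3-E6 and Day3-E8 and below 0.06 in the others. It exceeded that of KLF4 by 0.156 on average, which the few KLF5 UMI did not resolve (p = 0.219, two-sided exact sign-flip permutation test). At one level per embryo, counting alone gives 35.4 Day 3 cells without a KLF5 UMI, and 39 were observed. On Day 2, 20.5 were expected and 19 observed. Cells without KLF5 UMI were thus about as many as the depth alone gives.

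**Figure D4:**
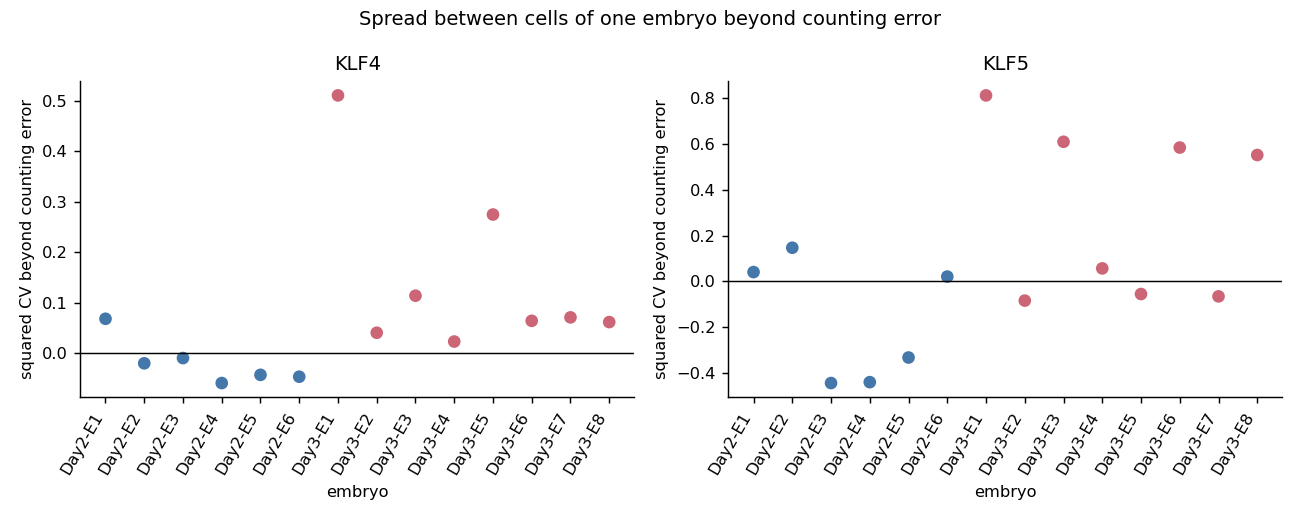
Squared coefficient of variation between the cells of each embryo beyond counting error, for KLF4 (left) and KLF5 (right; the scales differ), Day 2 in blue and Day 3 in red, with the line at 0 for cells that share one level. KLF4 is above 0 in all 8 Day 3 embryos and highest in Day3-E1, at 0.510, and KLF5 scatters more widely, from -0.0834 to 0.810 on Day 3.

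Most of the variation of KLF4 and KLF5 between Day 3 cells was between embryos, which did not hold for KLF10 and SALL4. On thinned counts (log2 of UMI + 1), the embryo accounted for 69.7% of the variance of KLF4, 54.0% of that of KLF5, 37.6% of that of KLF10 and 7.74% of that of SALL4. On Day 2 the estimates were below 0 for all of them. Pooling cells of several embryos would therefore link KLF4 and KLF5 through the embryo, and the correlation was taken within embryos. There it was weak. Spearman's rho between the CPM of KLF4 and KLF5 over the 13 to 17 cells of a Day 3 embryo was -0.297, 0.497, -0.172, 0.247, 0.146, 0.223, 0.0947 and 0.147 for Day3-E1 to Day3-E8, with a median of 0.146. On thinned counts the median was 0.0307 and 4 of 8 embryos were above 0. Of 4419 genes compared with KLF4 in the same way, 38.6% had a median at or above that of KLF5. On Day 2 the median over 6 embryos was -0.00957. These points share embryo, library and few KLF5 UMI, and such values do not set KLF5 apart from other genes.

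KLF10, a TGF-beta inducible member of the family, had a higher rank correlation with KLF4 from cell to cell than KLF5 had. KLF10 also had more counts, at a mean of 2.28 UMI per thinned Day 3 cell against 1.22 for KLF5. The part of these counts in the difference was not tested. On thinned counts the median within-embryo rho of KLF10 with KLF4 was 0.370, above 0 in 8 of 8 Day 3 embryos. Of the 4419 genes, 0.747% had a median as high. On CPM the median was 0.344, with 7 of 8 embryos above 0 and values from -0.368 to 0.758. With KLF5 the thinned median of KLF10 was 0.173, a value that 8.83% of genes reached. This comparison was added after the values of KLF10 had been seen and is a description.

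Within the KLF family the rise was not general. Of 5 members with counts high enough for the main edgeR test, KLF4, KLF5 and KLF10 were called higher on Day 3, none was called lower, and KLF11 and KLF12 were not called, where 21.2% of all tested genes were called higher. Some of these passed the filter on low counts through Day 3, so all 11 members were also fitted without it: there 5 were called higher and 0 lower, with a median log2 fold change of 1.28 against -0.05 over all 10772 genes, of which 20.3% were called in either direction and 1533 as higher. KLF10 changed most, from 8.32 CPM on Day 2 (SD 2.72, n = 6) to 244 CPM on Day 3 (SD 164, n = 8). By edgeR its log2 fold change was 5.18, the standard error 0.67 and the adjusted p 6.88e-05. It stood at 4.57 to 10.87 CPM in Day 2 embryos and at 24.99, 339, 120, 293, 59.8, 482, 233 and 396 CPM in Day3-E1 to Day3-E8. All 8 Day 3 embryos were above Day 2, with Day3-E1 and Day3-E5 again the lowest. In Day3-E5, KLF10 was 7.19-fold the Day 2 mean, like KLF4 at 7.43-fold and unlike KLF5 at 1.34-fold.

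KLF11 and KLF12, both known mainly as repressors, had Day 3 means near those of Day 2, but single embryos differed. KLF11 was below the Day 2 range in 3 Day 3 embryos, at 74.7, 100 and 82.4 CPM in Day3-E4, Day3-E7 and Day3-E8. It was above that range in 1, at 278 CPM in Day3-E5, and within it in 4. KLF12 was below its Day 2 range in 3 Day 3 embryos and within it in 5. KLF11 was the most abundant member on Day 2, at 195 CPM (SD 46.6, n = 6), and stood at 162 CPM on Day 3 (SD 76.4, n = 8), for a log2 fold change of -0.06 (edgeR adjusted p = 0.880). The means of KLF12 were 32.7 and 27.4 CPM, with SDs of 9.31 (n = 6) and 13.93 (n = 8), for a log2 fold change of 0.01 (edgeR adjusted p = 0.978). The sign of both small differences depended on the fit. The other 6 members had too few UMI for the main test and have values from the fit without the filter only. There KLF3, a repressor that recruits CtBP, had a log2 fold change of 4.03 (edgeR adjusted p = 0.000502), and KLF13 one of 1.96 (edgeR adjusted p = 0.0164). KLF3 stood at 1.09 to 10.655 CPM on Day 2 and at 6.66, 146, 15.7, 212, 5.20, 37.3, 48.5 and 131 CPM in Day3-E1 to Day3-E8. Like KLF5, it was above the Day 2 range in 6 embryos and within it in Day3-E1 and Day3-E5. KLF6, KLF7, KLF9 and KLF15 were not called in that fit, with edgeR adjusted p of 0.337 to 0.912 and at most 39 UMI on either day.

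These differences changed the order of the family. On Day 2 the order by mean level was KLF11, KLF4, KLF12 and KLF5, and each of these was above the next in 6 of 6 embryos. Below them KLF5 was above KLF7 in 4 of 6 embryos only. On Day 3 KLF4 was above KLF10 in 8 of 8 embryos, and KLF10 above KLF11 in 5 of 8 and KLF11 above KLF5 in 6 of 8, so that the places after KLF4 were not separated. KLF4 made up 25.4% ± 3.54 (SD, n = 6) of all KLF UMI on Day 2 and 64.9% ± 11.24 (SD, n = 8) on Day 3, and KLF11 fell from 53.6% ± 4.88 (SD, n = 6) to 13.01% ± 14.44 (SD, n = 8). KLF5 made up 3.26% ± 1.703 (SD, n = 6) and 5.03% ± 3.74 (SD, n = 8). UMI of 3' ends count molecules once, so no length enters these comparisons of levels between genes, but genes may differ in capture.

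**Figure D5:**
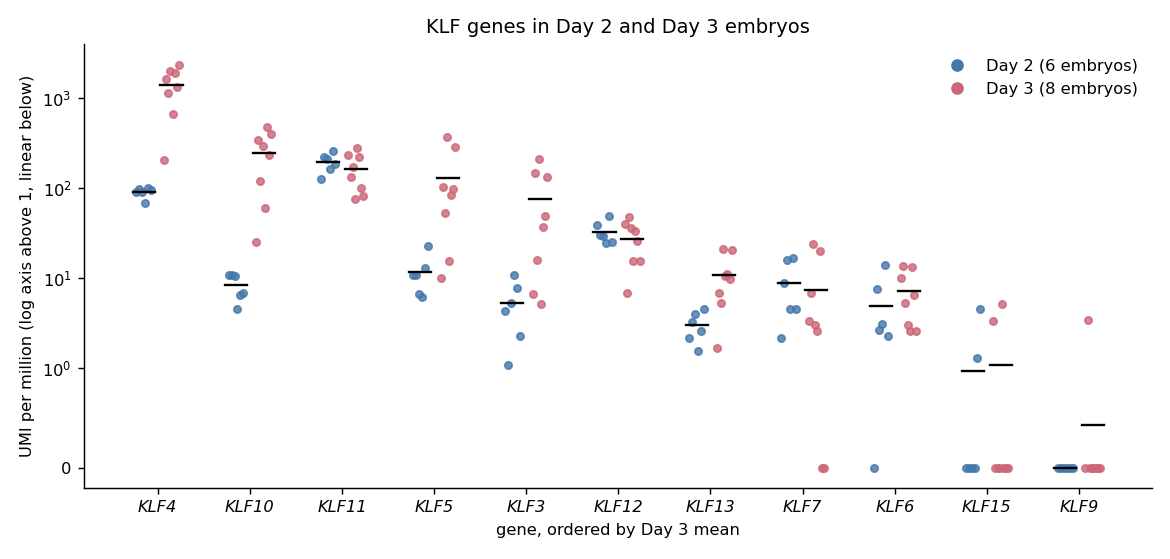
Levels of the 11 KLF genes of the table in CPM (log axis above 1 and linear below), 1 point per embryo, Day 2 in blue and Day 3 in red, with black lines at the means and genes in order of the Day 3 mean. In the fit without a filter on low counts KLF10, KLF4, KLF3, KLF5 and KLF13 are called higher on Day 3, with log2 fold changes of 5.07, 4.21, 4.03, 3.77 and 1.96, whereas KLF11 and KLF12 are not called.

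Among factors that share the DNA motif, SP1 rose with them. Its means were 75.5 and 504 CPM, with SDs of 9.76 (n = 6) and 229 (n = 8) and an edgeR adjusted p of 9.30e-05. It was 1 of 2 tested SP genes called, where 21.2% of all tested genes were called higher. The median log2 fold change of those 2 was 1.66. SP1 was also among the 5 genes whose level was most like that of KLF4 over the 8 Day 3 embryos (Pearson r on log2(CPM + 1) over 5273 other genes), at r = 0.982. The other 4 were TRA2A, a splicing regulator, at 0.993, ALG2, a mannosyltransferase, at 0.989, CHD1, a chromatin remodeller, at 0.985 and NOL11, a ribosome biogenesis factor, at 0.983. KLF10 stood 35th in this order, at 0.960, and KLF5 210th. For KLF5 the 5 genes were CCDC126 at 0.993, TERF2IP, a telomere protein, at 0.991, HNRNPDL, an RNA-binding protein, at 0.989, BAZ1A, a chromatin remodelling subunit, at 0.988 and PPIP5K2, an inositol phosphate kinase, at 0.987, and KLF4 stood 381st. All 10 genes were called higher on Day 3, with log2 fold changes of 1.66 to 3.83, and with 8 embryos many genes reach such values.

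Genes of LIF and STAT3 signalling gave calls in both directions. Of 5 tested genes, PIM1, a kinase induced by STAT3, rose (log2 fold change 0.81, edgeR adjusted p = 0.00645) and JAK1, the receptor-bound kinase, fell by 0.71 on the log2 scale (edgeR adjusted p = 0.0398). The median over the 5 was -0.01, and 2 of 5 called is read beside the 32.5% of all tested genes. STAT3 itself stood at 725 ± 70.3 CPM (SD, n = 6) and 477 ± 189 (SD, n = 8), and LIFR at 22.2 and 18.5 CPM, neither called. Among 13 tested genes for turnover and cofactors of KLF proteins, none was called higher and 2 were called lower, with a median log2 fold change of -0.11, where 595 of all 5274 genes were called lower. So few calls do not set the list apart. The 2 were the F-box proteins BTRC, down by a log2 fold change of -0.70 (edgeR adjusted p = 0.0365), and FBXO22, at -0.88 (edgeR adjusted p = 0.0110).

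Other pluripotency and trophectoderm factors gave a mixed picture beside the 2 KLF genes. The calls in these lists and in the marker lists are read beside all 5274 tested genes. Of those, 21.2% were called higher on Day 3 and 595 genes were called lower. Of 5 tested pluripotency factors, MYC rose from 1 UMI on Day 2 to 116 on Day 3 (log2 fold change 6.496, edgeR adjusted p = 6.14e-05) and SALL4 by 0.55 on the log2 scale (edgeR adjusted p = 0.0306), and the median was 0.48. POU5F1 and SOX2 were not called, at 38.7 and 35.3 CPM and at 96.3 and 62.5 CPM on Day 2 and Day 3. NANOG, with 9 and 157 UMI, did not pass the filter on low counts in enough embryos, which MYC passed through Day 3. Of 4 tested trophectoderm factors, TFAP2C rose from 25.2 to 628 CPM, with SDs of 5.31 (n = 6) and 348 (n = 8) and a log2 fold change of 5.01 (edgeR adjusted p = 4.27e-05), and DAB2 by 1.64 (edgeR adjusted p = 0.0176). GATA2 and GATA3 were not called, and the median was 0.81. Of the 20 activation genes 3 had counts for the test and all 3 were called higher, with a median of 5.43, a direction that the choice of that list favours. The 10 oocyte markers had 5 called lower, among them ZAR1 (log2 fold change -1.49, edgeR adjusted p = 0.00359) and ZP2 (-0.53, edgeR adjusted p = 0.0450), none higher, and a median of -0.55. None of the 3 tested cumulus cell markers was called, with a median of -0.66.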

How the data were processed

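SCRB-Seq libraries were made from single blastomeres, picked by hand, so that no doublet caller was run. The authors demultiplexed the reads, aligned them to Bos tau7 with ERCC spike-in sequences using STAR 2.5.2b and counted UMI with the Drop-seq pipeline, and the deposited counts are raw UMI counts per gene and cell. A second deposited table, normalised by the authors to the median UMI total, was not used. Cells with at least 2000 UMI were kept, 92 ERCC rows (1.78% of UMI) were left out of levels and fits, and counts were summed per embryo. Days were compared with edgeR 4.0.16 (quasi-likelihood test, TMM, filterByExpr, Benjamini-Hochberg over 5274 genes, threshold 0.05). DESeq2 1.42.0 was an alternative. Single values were compared with exact permutation tests over embryos (scipy 1.17.1). Levels are UMI per 1000000 gene UMI (CPM). Thinning drew 10000 UMI per cell (seed 1), and scripts were tested on simulated data. Named genes were KLF4, KLF5, all KLF genes of the table, the genes of each list that passed the threshold (if over 4, the extremes) and the 5 most like each gene, and a few unchanged members were added after their values were seen. Members and lists were chosen with earlier results of these data known. Embryo numbers came from the labels, and the batches p1 to p3 from the title suffix. Coordinates and sequences were not used.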

Additional observations from a re-analysis of the deposited data

Results flagged for a closer look

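KLF4 in Day2-E4 was at 68.5 CPM, far below the other Day 2 embryos given their range, of which the nearest was at 89.7. KLF15 in Day2-E6 was at 4.56 CPM with the next embryo at 1.28, and KLF9 in Day3-E2 was at 3.39 CPM from 1 UMI with all other embryos at 0. These were 3 of 30 groups of embryos examined for a far value, of which chance flags about 1 in 20.

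The 9 cells under 2000 UMI, which no comparison used, still held 4 KLF4 UMI, all in the 5 Day 3 cells. They came from 2880 UMI in those cells, which is 1389 CPM, near the Day 3 mean of 1406.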

How the results depend on the processing

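KLF4 kept its direction and call under all 24 alternatives and KLF10 under all 23, with log2 fold changes of 3.09 to 4.501 and 4.52 to 5.41. KLF5 did so under 22 of 23 (2.1225 to 4.11, adjusted p up to 0.0724, edgeR), the exception being 2.42 in the first barcode set, and with thinned counts it had too few UMI to be fitted. The embryo numbers only name embryos, since deviations of same-numbered embryos correlated at -0.13 to 0.02 and 0 of 6 correlated best with their own number. With the replicate block 599 genes were higher and 207 lower than on Day 2, against 1117 and 595, and KLF4 and KLF5 had log2 fold changes of 3.73 and 2.76.

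Without TMM the median over all genes went from -0.04 to -0.27 and 981 genes were lower. Title batches p2 and p3 alone gave 972 lower, the first barcode set 327 higher and 24 lower, and thinned counts 530 higher and 229 lower. Leaving out 1 embryo gave 907 to 1244 higher and 420 to 919 lower, with 919 without Day3-E1. The log2 ratio difference was -0.88 by per-cell means (exact p = 0.166) and -1.64 thinned (exact p = 0.0113, from 0 or 1 KLF5 UMI per Day 2 embryo). It was -1.01 with a pseudocount of 1 (exact p = 0.0280), -1.12 in the first barcode set (exact p = 0.0357) and -1.18 to -0.77 without 1 embryo. Its relation to activation had r of 0.67 to 0.93, the KLF4 spread difference was 0.111 to 0.180 and unthinned KLF5 shares differed by 12.6 points.

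Of the genes not called, 2 turned sign. KLF11 was 0.052 with the replicate block, 0.025 with the title batch as a factor, 0.020 in p2 and p3, 0.081 in the first barcode set, 0.22 thinned and -0.20 to 0.033 without 1 embryo. KLF12 was -0.22 without TMM, -0.060 without the filter, -0.0053 with the block, -0.27 with the title batch, -0.29 in p2 and p3, -0.21 in the first barcode set and -0.10 to 0.15 without 1 embryo. The causes were not tested. Few KLF5 UMI limit its spread and its within-embryo correlation.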
